A study of Homo sapiens with 24 samples.

Results

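U2-OS cells treated with 800 nM THZ531 for 6 h were compared with U2-OS cells given DMSO, the solvent, for the same time. U2-OS is an established human osteosarcoma cell line, and the comparison took 6 of the 24 arrays of the series, 3 from 800 nM and 3 from DMSO. The remaining arrays came from U2-OS at 50 and 200 nM and from a second osteosarcoma line, SJSA-1, given DMSO or the same 3 doses, also with 3 arrays a group. RNA was measured on Affymetrix PrimeView arrays, on which each gene is read by 1 or more probe sets. The probe set that averaged highest across all 24 arrays stood for the gene, and a gene was taken as active when the 3 DMSO arrays of U2-OS averaged more than 6.64 on the log2 scale, the log2 of an intensity of 100. This kept 6741 of 18132 genes. TSC1 was the last gene inside this limit, at 7.15 ± 0.097 at 800 nM and 6.65 ± 0.035 in DMSO (mean log2 intensity ± SD, n = 3 each), and TCAP the first outside it, at 6.72 ± 0.074 at 800 nM and 6.64 ± 0.095 in DMSO. All groups were grown in Dulbecco's medium with fetal bovine serum and plated a day before treatment, and the treatment text names TRIzol for the RNA. The labels number the 3 arrays of a group but do not say that they came from separate cultures, so the p-values rest on the variation among these particular arrays, and that may be technical. Since each array reads a whole culture, fewer cells expressing a gene and less of its RNA per cell cannot be told apart.

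THZ531 is a covalent inhibitor of CDK12 and CDK13, the 2 kinases that work with cyclin K and phosphorylate the C-terminal domain of RNA polymerase II as it moves along a gene. CDK12 is known for keeping up the full-length transcription of long genes and of DNA repair genes, among them BRCA1. Genes with short-lived RNA, such as the immediate-early genes and many chemokines, respond within hours when transcription is disturbed or cells are stressed. These points are background and were not measured here.

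CCL20 and CXCL8, which encode the chemokines that draw CCR6-bearing lymphocytes and neutrophils, had the largest rises of all active genes. Their promoters were searched, on both strands, for GGNNTTTCC, a core of NF-kB sites, TGANTCA, the AP-1 motif, and TGACGTCA, the cAMP response element, over 250 bases before and 50 after the RefSeq start site (GRCh38.p14). The bases before the start are shown because both genes carried the NF-kB letters, in capitals and in CCL20 on the opposite strand, and CXCL8 the AP-1 letters, also in capitals. The CCL20 window runs over chr2:227813592-227813891 and the CXCL8 window over chr4:73740319-73740618, both on the plus strand, and the first 250 bases of each are printed 5′ to 3′.
CCL20: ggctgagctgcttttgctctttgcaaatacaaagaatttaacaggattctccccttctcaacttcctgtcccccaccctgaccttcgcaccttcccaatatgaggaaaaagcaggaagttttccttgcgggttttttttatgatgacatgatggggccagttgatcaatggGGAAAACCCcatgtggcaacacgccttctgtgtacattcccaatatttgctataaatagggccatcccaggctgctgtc
CXCL8: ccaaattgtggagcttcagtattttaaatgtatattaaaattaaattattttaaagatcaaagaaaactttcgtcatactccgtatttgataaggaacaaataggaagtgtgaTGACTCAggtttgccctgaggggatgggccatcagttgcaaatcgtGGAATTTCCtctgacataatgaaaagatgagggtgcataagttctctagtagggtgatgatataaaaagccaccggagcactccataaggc
The NF-kB letters began 79 bases before the start of CCL20 and 91 bases before the start of CXCL8, and the AP-1 letters 137 bases before the start of CXCL8. Of the 15 largest rises, 13 genes had a promoter in the table, and 2 of them, these 2 chemokine genes, held the NF-kB letters. Of the 15 largest falls, 13 had a promoter, and 2 of those, DHX32 and GOPC, held the same letters. Of 5729 active genes with a promoter, 9.65% held the NF-kB letters in any of their windows, 6.70% the AP-1 letters and 4.42% the cAMP response element. Over all 35116 promoter windows of this length the shares were 6.26%, 7.71% and 1.85%. The only other match among the largest rises was a cAMP response element in SNX5. A match of letters is a description and shows no binding.

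CCL20 measured 11.39, 11.42 and 11.43 in the 3 arrays at 800 nM, against 8.49, 8.57 and 8.23 in the 3 DMSO arrays (log2 intensity, here and below). The groups lay far apart, and the gene was 2.98 ± 0.092 higher at 800 nM (log2 change ± SE), or 7.91-fold (adjusted p = 6.37e-10, limma over all active genes). CXCL8 measured 9.64, 9.66 and 9.58 at 800 nM, against 7.28, 7.37 and 6.98 in DMSO, a rise of 2.42 ± 0.095 or 5.34-fold (adjusted p = 1.98e-09). CCL2, the monocyte chemokine, measured 10.28, 10.23 and 10.00 at 800 nM, against 8.28, 8.33 and 8.42 in DMSO. It rose 3.55-fold (log2 change 1.83 ± 0.079, adjusted p = 2.57e-09), and its 3 treated arrays all stood above its 3 DMSO arrays. Each of these 3 chemokine genes was read by 1 active probe set.

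Of the 6741 active genes, 1707 (25.3%) were higher and 2461 (36.5%) lower at 800 nM than in DMSO at an adjusted p under 0.05, so that 61.8% passed in one direction or the other and 2573 did not pass. At least 2-fold changes were fewer, at 79 higher (1.17%) and 297 lower (4.41%), and the changes ran between -3.17 and 2.98 on the log2 scale. In the larger part of the called genes the change was therefore under 2-fold. The 3 arrays at 800 nM all lay above the 3 DMSO arrays in 1952 genes (29.0%) and all below them in 2728 (40.5%). The median change over active genes was -0.047. Arrays of the same group differed by a median of 0.05 to 0.11 on the log2 scale, and arrays of 800 nM differed from those of DMSO by 0.22 to 0.28. How many genes counted as 2-fold depended on the limit of activity, which was set on DMSO alone: with the mean over all U2-OS arrays above 100 in its place, 117 genes were at least 2-fold higher and 207 lower.

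**Figure D1:**
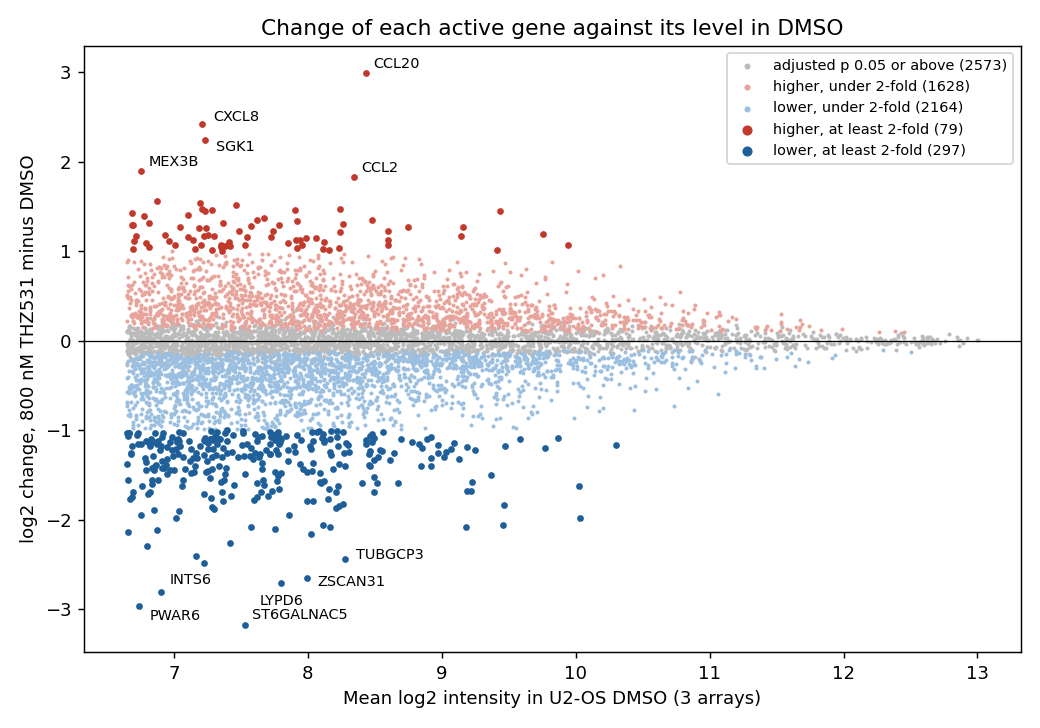
Log2 change of each of the 6741 active genes (vertical axis, 800 nM THZ531 minus DMSO) against its mean log2 intensity in DMSO (horizontal axis, 3 arrays); each point is a gene, coloured by direction and by a change of at least 2-fold. The 79 genes at least 2-fold higher and the 297 at least 2-fold lower lie at the top and bottom of the cloud, with CCL20 highest at 2.98 and ST6GALNAC5 lowest at -3.17.

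The direction of many small changes rested on how the arrays were scaled. The 27 probe sets for the poly-A control RNAs, which are added to a sample before labelling, averaged 5.67 ± 0.011 at 800 nM and 4.83 ± 0.061 in DMSO (mean log2 intensity ± SD, n = 3 each), a difference of 0.84 with an exact two-sided permutation p of 0.1, the smallest that 3 against 3 arrays allow. They stood 0.091 above DMSO at 50 nM and 0.49 above it at 200 nM. The 18 probe sets for the hybridization controls averaged 9.15 ± 0.042 at 800 nM and 9.21 ± 0.060 in DMSO, with an exact permutation p of 0.3. When the arrays were shifted so that both kinds of control together were level, the median of active genes moved to -0.52, with 240 genes higher and 5465 lower, and when the poly-A controls alone were levelled it moved to -0.88, with 45 higher and 6242 lower. Levelling the hybridization controls alone gave a median of 0.014, with 1869 higher and 1862 lower, and centring each array on its median gave 0.01, with 2069 higher and 2068 lower. A gene's change under such a shift is its change here less the same constant, so the order of the genes is kept. A rise smaller than 0.48 turned below 0 under the shift by both controls, and one smaller than 0.84 under the poly-A shift. Of the gene lists below with a median above 0, leaving out the cell type markers, only the immediate-early genes kept it under the first shift, and none under the second. Of the called rises, 145 were larger than the poly-A shift and 566 larger than the shift by both controls. The part of the poly-A difference in the changes of genes was not tested. The 3′ to 5′ differences of GAPDH (-0.13 at 800 nM and -0.12 in DMSO) and ACTB (0.42 at 800 nM and 0.40 in DMSO) were close in both groups.

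The 15 largest rises were 2.69-fold to 7.91-fold. Beside the chemokines they included SGK1, a serum- and stress-induced kinase gene, at 9.52, 9.48 and 9.41 at 800 nM, against 7.25, 6.98 and 7.46 in DMSO, 4.72-fold higher (adjusted p = 4.89e-09). MEX3B, which encodes an RNA-binding protein, measured 8.75, 8.64 and 8.55 at 800 nM, against 6.86, 6.94 and 6.47 in DMSO, and was 3.71-fold higher. All 3 treated arrays of both genes stood well above the DMSO arrays. ID2, an inhibitor of basic helix-loop-helix factors, measured 8.88, 8.96 and 9.08 at 800 nM, against 7.43, 7.51 and 7.44 in DMSO, and PHLDA2, an imprinted growth-restraining gene, 8.83, 8.74 and 8.64 at 800 nM, against 7.29, 7.15 and 7.15 in DMSO. Both had clean gaps between the groups, and the rises were 2.85-fold and 2.91-fold. The remaining rises held genes of several roles. PRDM2, which encodes a zinc finger protein with a methyltransferase domain, was 2.95-fold higher, RBM15, whose protein guides the writing of m6A on RNA, 2.77-fold, and GFM1, the mitochondrial translation elongation factor G, 2.77-fold. PRKAA1, a catalytic subunit of the AMP-activated kinase, was 2.75-fold higher, CLK1, a kinase of splicing factors, 2.75-fold, and UTP15, a ribosome biogenesis factor, 2.69-fold. SNX5, a sorting nexin, and ANKRD10 were both 2.73-fold higher by their representing probe set, but another active probe set of SNX5 fell by 0.53 and another of ANKRD10 by 1.18 on the log2 scale, both called in that direction. Averaged over its probe sets ANKRD10 did not pass (0.135, adjusted p = 0.123).

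**Figure D2:**
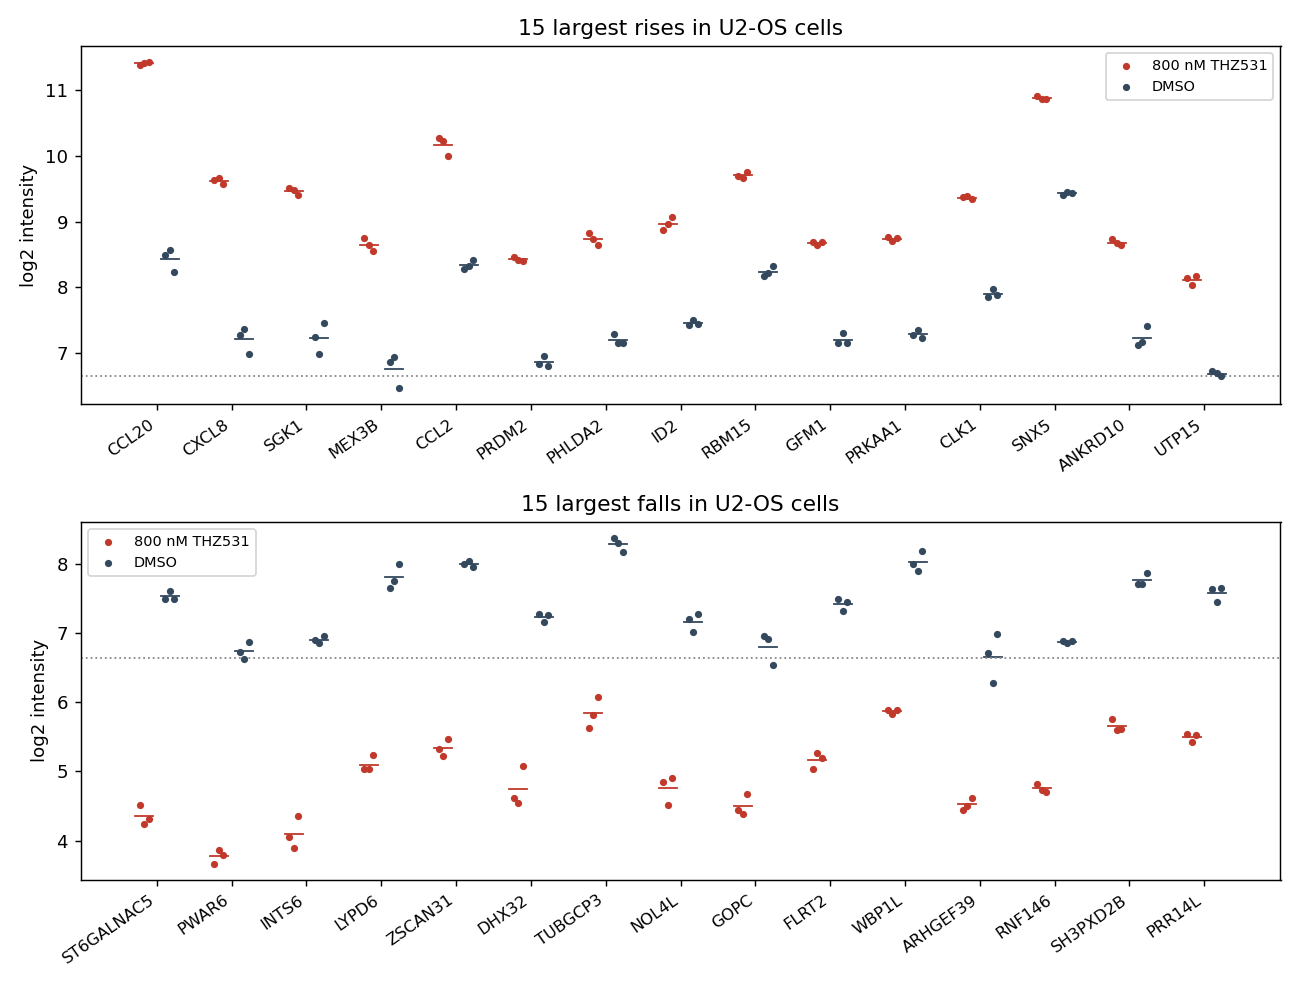
Log2 intensity (vertical axis) of the 15 largest rises (upper panel) and 15 largest falls (lower panel), one point per array and a bar at the mean of each group, with 800 nM THZ531 in red to the left and DMSO in dark grey-blue to the right; the dotted line is the log2 of 100. In all 30 genes the 3 treated arrays lie on one side of the 3 DMSO arrays, as the choice of these genes required.

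The 15 largest falls ran between -3.17 and -2.08 on the log2 scale, and the means of all 15 at 800 nM, 3.78 to 5.87, lay below the limit of 6.64. ST6GALNAC5, a sialyltransferase gene, measured 4.52, 4.24 and 4.32 at 800 nM, against 7.49, 7.61 and 7.49 in DMSO, a fall by 3.17 on the log2 scale (SE 0.13, adjusted p = 2.12e-09), and its 4 active probe sets all fell. PWAR6, a non-coding RNA of the Prader-Willi region, measured 3.67, 3.87 and 3.80 at 800 nM, against 6.72, 6.62 and 6.87 in DMSO. The treated means of ST6GALNAC5, PWAR6, INTS6, DHX32, NOL4L, GOPC, ARHGEF39 and RNF146 lay below the medians over all probe sets of these arrays, which were intensities of 32.0 to 32.2, so their fold changes are ratios of the deposited values at low signal, and how far background fills that signal was not tested. INTS6, a subunit of the Integrator complex that cleaves nascent RNA, measured 4.05, 3.90 and 4.35 at 800 nM, against 6.90, 6.85 and 6.95 in DMSO, 6.96-fold lower. TUBGCP3, a subunit of the gamma-tubulin complex that nucleates microtubules, measured 5.63, 5.81 and 6.07 at 800 nM, against 8.37, 8.29 and 8.17 in DMSO. Its 4 active probe sets fell by between 0.85 and 2.44, so the size of this fall depended on the probe set. LYPD6 was 6.51-fold lower by its representing probe set, while its other one fell by 0.75 on the log2 scale. ZSCAN31, a zinc finger gene, was 6.29-fold lower, DHX32, a helicase-like gene, 5.58-fold, NOL4L 5.28-fold, and GOPC, which encodes a Golgi-associated PDZ protein, 4.90-fold. FLRT2, a cell adhesion gene, was 4.77-fold lower, WBP1L 4.45-fold, ARHGEF39 4.39-fold, RNF146, a ubiquitin ligase gene, 4.34-fold, SH3PXD2B, which encodes a podosome scaffold, 4.29-fold, and PRR14L 4.23-fold. METTL23 had the same fitted change as PRR14L, the last of the 15, and was left out for its larger p.

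The targets of THZ531 were themselves read on the array. CDK12 measured 7.75, 7.54 and 7.65 at 800 nM, against 6.65, 6.71 and 6.91 in DMSO, 1.85-fold higher (adjusted p = 1.74e-06). CDK13 measured 6.16, 6.24 and 6.22 at 800 nM, against 6.64, 6.62 and 6.89 in DMSO, 1.42-fold lower (adjusted p = 0.000193). The RNAs of the 2 kinases thus changed in opposite directions, with no overlap between the groups in either. CCNK, their cyclin, measured 8.48, 8.46 and 8.43 at 800 nM, against 8.05, 8.02 and 8.15 in DMSO, a 1.30-fold rise. Among other transcription kinases, CDK7, of the initiation factor TFIIH, rose 1.39-fold, and CDK9, the kinase of P-TEFb, fell by 0.19 on the log2 scale (adjusted p = 0.0207), a call lost without the second treated array (adjusted p = 0.0869) or without the third DMSO array (adjusted p = 0.085). CCNT1, the cyclin of CDK9, rose 1.54-fold and HEXIM1, which holds P-TEFb inactive, 1.71-fold, at 9.59, 9.84 and 9.70 at 800 nM, against 8.88, 8.93 and 9.01 in DMSO. LARP7, which stabilises the 7SK RNA that HEXIM1 binds, was 1.55-fold lower, and the Mediator kinase genes CDK19 and CDK8 fell by 0.50 and 0.19 on the log2 scale. Of the 15 active transcription kinases and cyclins, 9 were higher and 5 lower (60% and 33.3%, against 25.3% and 36.5% of all active genes). Their median change was 0.31 against -0.047 over all active genes. It was -0.17 when the arrays were shifted by both controls and -0.53 when shifted by the poly-A controls.

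Of 22 active elongation factors, 6 were higher and 6 lower (27.3% each, against 25.3% and 36.5% of all active genes). The median of -0.017 turned to 0.04 with median-centred arrays and to 0.044 when shifted by the hybridization controls. The bromodomain genes BRD2 and BRD3, whose proteins bind acetylated histones, moved in opposite directions. BRD2 measured 11.08, 11.03 and 10.92 at 800 nM, against 9.92, 9.87 and 10.03 in DMSO, 2.10-fold higher, and BRD3 6.28, 6.24 and 6.37 at 800 nM, against 7.61, 7.70 and 7.96 in DMSO, 2.75-fold lower. CTR9 and CDC73, subunits of the PAF1 complex that travels with the polymerase, rose 1.90-fold and 1.84-fold. Of 12 active Integrator subunits, 8 were lower and 2 higher (66.7% and 16.7%, against 36.5% and 25.3% of all active genes), with a median of -0.32 that stayed below 0 under every scaling. Beside INTS6, INTS7 was 2.02-fold lower, INTS14 1.76-fold and INTS2 1.72-fold, and the 2 higher ones were INTS13 (0.43) and INTS12 (0.16).

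The 18 active cleavage and polyadenylation factors had 7 higher and 8 lower (38.9% and 44.4%, against 25.3% and 36.5% of all active genes). Their median of 0.050 turned to -0.43 when shifted by both controls and to -0.79 by the poly-A controls. CSTF2T, a cleavage stimulation factor gene, measured 6.50, 6.43 and 6.85 at 800 nM, against 7.76, 7.65 and 7.57 in DMSO, 2.09-fold lower, and CPSF2, a subunit of the cleavage complex, was 2.02-fold lower. CLP1, of the second cleavage factor, was 1.55-fold higher. PAPOLA, the poly(A) polymerase gene, was 1.61-fold higher by its representing probe set, while at least 1 of its 8 active probe sets was called lower (-0.17). Of 17 active SR proteins and CLK kinases, which choose and phosphorylate splice sites and their factors, 9 were higher and 5 lower (52.9% and 29.4%, against the same shares). Their median of 0.22 turned to -0.26 when shifted by both controls and to -0.62 by the poly-A controls. CLK1 measured 9.37, 9.39 and 9.34 at 800 nM, against 7.86, 7.97 and 7.89 in DMSO, and its 3 active probe sets rose by 1.10 to 1.46. CLK3 was 1.51-fold higher, TRA2A 1.46-fold and SRSF5 1.34-fold. The 5 lower ones were CLK2 (-0.42), SRSF3 (-0.24), SRSF4 (-0.23), SRSF1 (-0.23) and SRSF9 (-0.15). Of 29 active chromatin regulators, 6 were higher and 11 lower, shares close to those of all active genes, with a median of -0.057 that turned to 0 or just above with median-centred arrays or the hybridization controls. CHD9 and BPTF, both remodelling genes, were 2.33-fold lower, KMT2A, a histone methyltransferase gene, was 1.77-fold lower, and EZH2, the catalytic gene of the Polycomb complex, was 1.68-fold higher. Of 78 active genes with a numbered ZNF symbol, which encode mostly zinc finger factors, 40 were lower (51.3%, against 36.5% of all active genes) and 17 higher (21.8%, against 25.3%), and 12 were at least 2-fold lower (against 4.41% of all active genes), among them ZNF362 (3.69-fold), ZNF518B (3.45-fold), ZNF114 (3.23-fold) and ZNF638 (3.20-fold). Their median was -0.20.

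Genes of homologous recombination and the Fanconi pathway, which repair DNA breaks and crosslinks, had the lowest median of the functional lists. Of 13 active members, 9 were lower (69.2%, against 36.5% of all active genes) and 0 higher (against 25.3%) by limma, also 0 at an unadjusted p under 0.05. Of the 13, 4 were at least 2-fold lower, against 4.41% of all active genes. Their median was -0.49, against -0.047 over all active genes, and it stayed below 0 under every scaling tried. The list had 25 members on the array, and those below the limit of activity moved both ways. FANCM rose by 0.83 and FANCC by 0.55, while BRIP1 fell by 1.05 and FANCF by 0.77 (limma over all genes, adjusted p under 0.05 each). BRCA1, the breast cancer repair gene, measured 5.67, 5.63 and 5.71 at 800 nM, against 7.16, 6.91 and 6.61 in DMSO, 2.33-fold lower (adjusted p = 1.72e-05), with a wider spread in DMSO than at 800 nM. BARD1, which encodes its partner, measured 5.98, 5.72 and 6.12 at 800 nM, against 7.32, 7.31 and 7.38 in DMSO, 2.63-fold lower. BLM, a helicase gene, measured 5.49, 5.51 and 5.71 at 800 nM, against 6.91, 6.97 and 6.85 in DMSO, 2.53-fold lower. RAD54B, a recombination translocase gene, measured 5.75, 5.61 and 5.64 at 800 nM, against 6.74, 6.81 and 6.82 in DMSO, 2.18-fold lower. In all 4 genes the treated means lay below the limit of activity. Of 11 active checkpoint genes, 6 were lower and 4 higher (54.55% and 36.36%, against 36.5% and 25.3% of all active genes), with a median of -0.28. The 4 higher ones were TIPIN, a replication fork protector (0.39), CHEK1, a checkpoint kinase, at 8.63, 8.59 and 8.62 at 800 nM, against 8.12, 8.19 and 8.09 in DMSO (1.39-fold), WEE1, which restrains entry into mitosis (1.40-fold), and CDC25A, the phosphatase that opposes it (1.47-fold). TOPBP1, an activator of the ATR kinase, was 1.36-fold lower. Checkpoint genes below the limit of activity moved as well. ATR fell by 1.04 and ATM by 0.73, while HUS1 rose by 0.36 (limma over all genes, adjusted p under 0.05 each).

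DNA replication and G1/S genes were lower in 25 of 45 active members (55.6%, against 36.5% of all active genes) and higher in 7 (15.6%, against 25.3%), with a median of -0.16. GINS1, of the replicative helicase, measured 7.84, 7.77 and 7.97 at 800 nM, against 9.35, 9.37 and 9.37 in DMSO, 2.83-fold lower. POLA2, of the primase complex, was 2.21-fold lower, and ORC2 and ORC3, of the origin recognition complex, were 2.04-fold and 1.85-fold lower. Mitosis genes were lower in 25 of 46 (54.3%, against the same 36.5%) and higher in 12 (26.1%, close to the 25.3% of all active genes), with a median of -0.21. KIF14, a mitotic kinesin gene, was 2.42-fold lower, AURKB, the kinase of the chromosomal passenger complex, 1.96-fold, ESPL1, which encodes separase, 1.81-fold, and CDC25B 1.71-fold. Both medians stayed below 0 under every scaling tried. Of 9 active replication-dependent histone genes, whose RNAs mostly lack a poly(A) tail, 1 was higher (H4C12, 1.22-fold) and 0 lower, against 25.3% and 36.5% of all active genes. At an unadjusted p under 0.05, 0 of these histone genes were lower as well. Their median of 0.15 turned below 0 under the shifts by both or by the poly-A controls (-0.32 and -0.68), and H2AC20 ranged over 8.74, 9.65 and 8.89 at 800 nM, against 8.96, 8.70 and 9.02 in DMSO.

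Immediate-early genes, which respond first to growth factors and stress, were higher in 22 of 26 active members (84.6%, against 25.3% of all active genes). They were lower in 2 (7.69%, against 36.5%), and 7 of the 26 were at least 2-fold higher, against 1.17% of all active genes. Their median was 0.61, the highest of the lists as deposited. It stayed above 0 when shifted by both controls (0.13) and turned to -0.23 when shifted by the poly-A controls. RHOB measured 8.90, 8.90 and 8.77 at 800 nM, against 7.58, 7.44 and 7.70 in DMSO, 2.43-fold higher. PLK2, an early-induced kinase, measured 10.50, 10.45 and 10.34 at 800 nM, against 9.12, 9.14 and 9.21 in DMSO, 2.42-fold higher, with its 4 active probe sets up by 1.27 to 1.53. MYC measured 9.81, 9.79 and 9.85 at 800 nM, against 9.25, 9.29 and 9.19 in DMSO, 1.49-fold higher (adjusted p = 2.07e-06). The 2 that were lower, named after their values were seen, were the AP-1 genes FOSL1 (-0.97) and FOSL2 (-0.22). Of 13 active NF-kB and chemokine genes, 6 were higher (46.2%, against 25.3% of all active genes) and 4 lower (30.8%, against 36.5%). Of the 13 active members, 4 were at least 2-fold higher, against 1.17% of all active genes. The median of the list, 0.14, turned to -0.34 under the shift by both controls and to -0.70 under the poly-A shift. Beside the 3 chemokines, NFKBIZ, an inducible co-regulator of NF-kB, measured 8.43, 8.41 and 8.49 at 800 nM, against 7.53, 7.40 and 7.22 in DMSO, 2.08-fold higher. The 4 lower ones, named after their values were seen, were LIF (-0.67), NFKBIE (-0.46), NFKB2 (-0.42) and TNIP1 (-0.23).

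**Figure D3:**
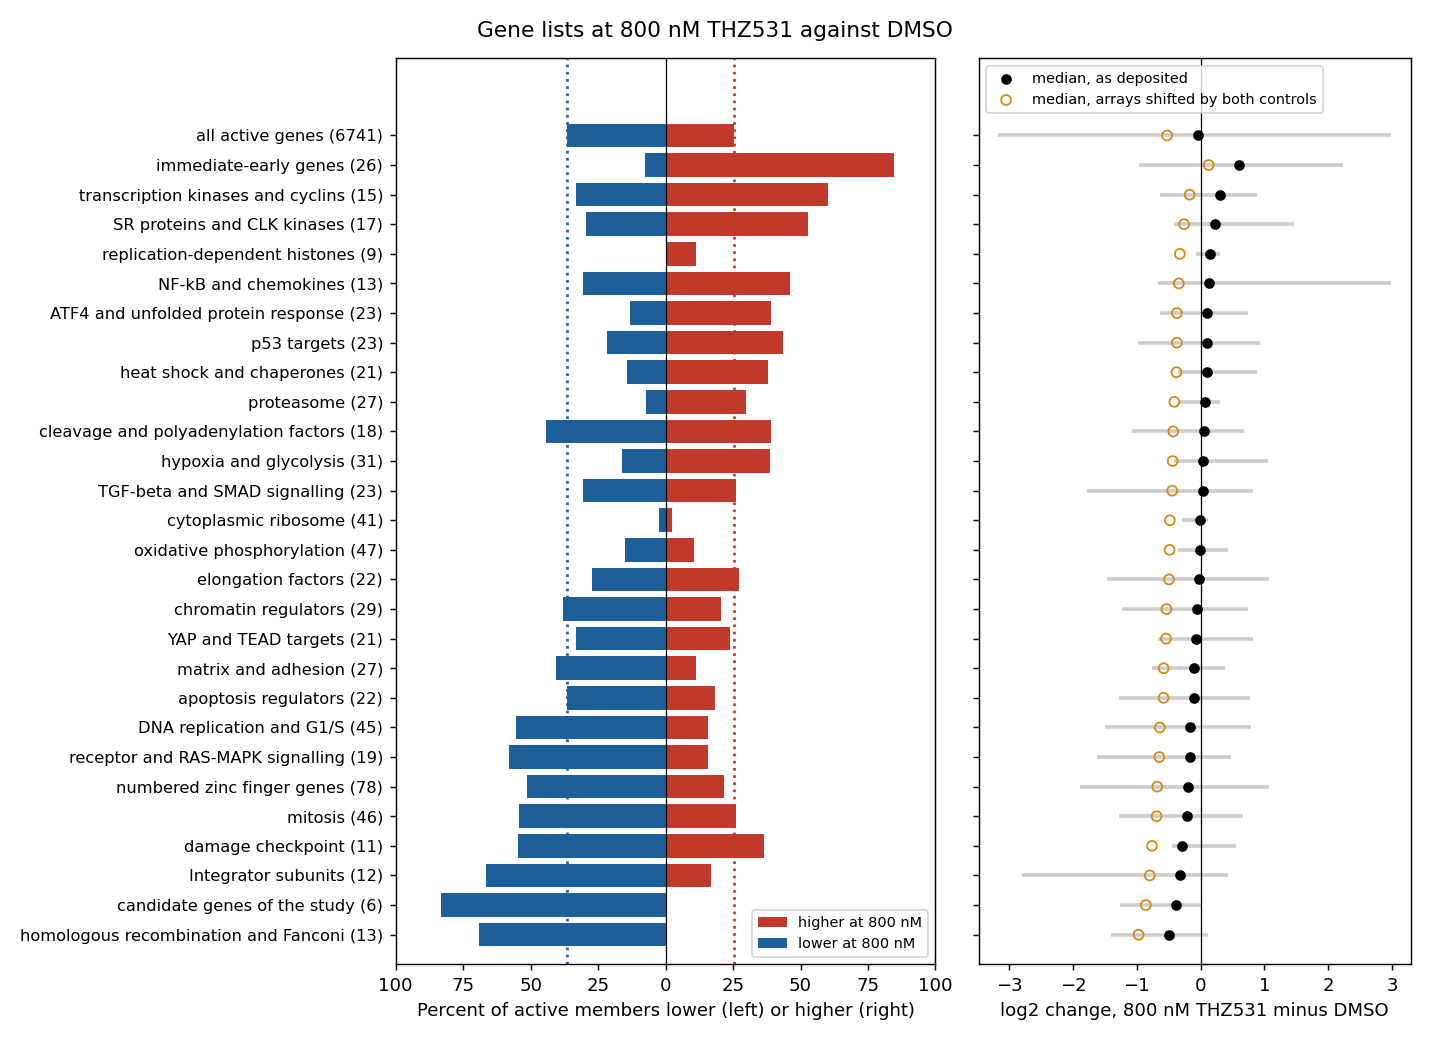
Gene lists in order of their median change, with the number of active members in brackets and all active genes on top: the left panel shows the percent of members lower (blue) and higher (red) at 800 nM THZ531 than in DMSO with dotted lines at the 36.5% and 25.3% of all active genes, and the right panel the median log2 change as deposited (black) and with the arrays shifted by both controls (open), over a bar from the lowest to the highest member. Immediate-early genes stand at the top, and homologous recombination and Fanconi genes at the bottom.

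Of 23 active p53 targets, 10 were higher and 5 lower (43.5% and 21.7%, against 25.3% and 36.5% of all active genes). The median was 0.11 (-0.37 shifted by both controls). ZMAT3, an RNA-binding p53 target, measured 8.77, 8.69 and 8.72 at 800 nM, against 7.73, 7.82 and 7.83 in DMSO, 1.91-fold higher, and PMAIP1, a death-promoting BH3 gene, 10.26, 10.30 and 10.27 at 800 nM, against 9.51, 9.47 and 9.54 in DMSO, 1.71-fold higher. MDM2, the ubiquitin ligase of p53, was 1.48-fold higher. XPC and TNFRSF10B, which serve excision repair and death signalling, were 1.96-fold and 1.70-fold lower, beside PHLDA3 (-0.66), DDB2 (-0.59) and TP53I3 (-0.52), so the targets moved in both directions. Of 22 active apoptosis regulators, 8 were lower (36.4%, against 36.5% of all active genes) and 4 higher (18.2%, against 25.3%), with a median of -0.10, so the share of falls was that of the background. FADD, the adaptor of death receptors, was 2.43-fold lower, BCL2L2, a protective gene of the BCL2 family, 2.41-fold and XIAP, a caspase inhibitor, 1.71-fold. The 4 higher ones were PMAIP1 (0.77), CFLAR (0.54), BBC3 (0.50) and MCL1 (0.31). Of 31 active hypoxia and glycolysis genes, 12 were higher and 5 lower (38.7% and 16.1%, against 25.3% and 36.5%), with a median of 0.040 (-0.44 shifted by both controls). The highest were KDM3A, a histone demethylase (2.08-fold), ADM, which encodes adrenomedullin (1.94-fold), VEGFA (1.84-fold) and BHLHE40 (1.75-fold), and the 5 lower ones were ENO2 (-0.42), SLC2A1 (-0.39), PFKP (-0.35), PKM (-0.30) and DDIT4 (-0.29). Genes of the ATF4 and unfolded protein response were higher in 9 of 23 and lower in 3 (39.13% and 13.04%, against 25.3% and 36.5%). The median of these 23 genes was 0.11 (-0.37 shifted by both controls). ATF5 was 1.67-fold higher, and the lower ones were XBP1 (-0.64), TRIB3 (-0.31) and HERPUD1 (-0.20). Heat shock genes and chaperones were higher in 8 of 21 and lower in 3 (38.1% and 14.3%, against the same shares), with a median of 0.10 (-0.38 shifted by both controls). HSPA1B, an inducible HSP70 gene that is nearly identical to HSPA1A, so that its probes may read both, was 1.52-fold higher, and DNAJB6 was 1.84-fold higher by its representing probe set while another of its 5 active probe sets fell by 0.68. The 3 lower ones were DNAJB1 (-0.35), HSF1 (-0.17) and HSPE1 (-0.12).

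Receptor and RAS-MAPK genes were lower in 11 of 19 active members (57.9%, against 36.5% of all active genes) and higher in 3 (15.8%, against 25.3%), with a median of -0.17. IRS1, the insulin receptor substrate, measured 6.54, 6.52 and 6.76 at 800 nM, against 8.27, 8.26 and 8.14 in DMSO, 3.07-fold lower, and SOS1, an exchange factor for RAS, 6.65, 6.58 and 6.81 at 800 nM, against 8.04, 8.03 and 8.05 in DMSO, 2.57-fold lower. PDGFRB was 1.87-fold lower. The 3 higher ones were FGFR1 (0.47), GRB2 (0.31) and MAP2K1 (0.30). Genes of TGF-beta and SMAD signalling were higher in 6 of 23 and lower in 7 (26.1% and 30.4%, against 25.3% and 36.5%). The median of this list was 0.033 (-0.44 shifted by both controls). SMAD6, an inhibitory SMAD, measured 5.68, 5.82 and 5.97 at 800 nM, against 7.78, 7.70 and 7.32 in DMSO, 3.43-fold lower. RNF111, a ubiquitin ligase of the pathway, was 2.17-fold lower, BMPR2, a receptor, 1.77-fold lower, and INHBA, which encodes an activin subunit, 1.78-fold higher. YAP and TEAD genes were higher in 5 and lower in 7 of 21 (23.8% and 33.3%, against the same shares), with a median of -0.063. The secreted target CCN2 was 1.78-fold higher and F3, tissue factor, 1.76-fold, beside CCN1 (0.45), VGLL4 (0.28) and MOB1A (0.23), while the factors TEAD3 and TEAD1 were 1.59-fold and 1.52-fold lower. Matrix and adhesion genes were lower in 11 of 27 (40.7%, against 36.5%) and higher in 3 (11.1%, against 25.3%), with a median of -0.10. CDH11, a cadherin of mesenchymal cells, was 1.70-fold lower. Beside CDH2 (0.29) and COL6A1 (0.17), FN1, fibronectin, was 1.30-fold higher (adjusted p = 0.0359), a call lost without any 1 of the 3 treated arrays or without the third DMSO array (adjusted p of 0.0571 to 0.17).

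Of 41 active cytoplasmic ribosomal protein genes, 1 was higher and 1 lower (2.44% each, against 25.3% and 36.5% of all active genes), with a median of -0.003 that turned to 0.053 with median-centred arrays. The higher one, RPS9 (0.12, adjusted p = 0.043), lost its call without any 1 of 5 of the 6 arrays (adjusted p of 0.0614 to 0.137), and the lower one, RPL13, measured 11.06, 11.10 and 11.02 at 800 nM, against 11.30, 11.35 and 11.38 in DMSO. Of 47 active oxidative phosphorylation genes, 5 were higher and 7 lower (10.6% and 14.9%, against the same shares), with a median of -0.007 that turned to 0.050 with median-centred arrays. The higher ones were NDUFA5 (0.43), NDUFA10 (0.33), NDUFS3 (0.23), NDUFB9 (0.15) and UQCRC2 (0.13), and NDUFA8 was 1.28-fold lower. Of 27 active proteasome genes, 8 were higher and 2 lower (29.6% and 7.41%, against the same shares), with a median of 0.067 (-0.41 shifted by both controls). PSMD14 was 1.21-fold higher, PSMB5 1.26-fold and PSMD4 1.21-fold lower, and PSMD12, 1.23-fold higher by its representing probe set, had another active probe set that fell by 0.63.

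The genes that the study carried into its prognostic work were chosen partly on these arrays, so their direction is no independent evidence. Of 7 such genes followed here, 6 were active. By limma, 5 of the 6 were lower and 0 higher, against 36.5% and 25.3% of all active genes, and 0 were higher at an unadjusted p under 0.05. LACTB, a mitochondrial serine protease gene, measured 7.79, 7.63 and 7.73 at 800 nM, against 8.97, 8.91 and 9.04 in DMSO, 2.39-fold lower, but its other active probe set, at -0.14 on the log2 scale, did not pass. CEP55, a gene of the final step of cell division, measured 9.28, 9.27 and 9.36 at 800 nM, against 9.91, 9.90 and 9.78 in DMSO, 1.47-fold lower. FOXP1, a forkhead factor gene, was 1.42-fold lower, DNAJB12, a chaperone gene of the endoplasmic reticulum, 1.19-fold, and SRSF3, a splicing factor gene, 1.18-fold. The call for SRSF3 was lost when its probe sets were averaged (-0.061, adjusted p = 0.401). TCF7L2, a factor of the Wnt pathway, measured 8.71, 8.69 and 8.79 at 800 nM, against 8.66, 8.70 and 8.78 in DMSO, and the groups overlapped (change 0.017, adjusted p = 0.85). APOLD1 was not active, at 3.68 ± 0.13 at 800 nM and 3.60 ± 0.22 in DMSO.

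Set against 200 nM, which uses no DMSO array in the contrast, 873 genes (13%) were higher and 1443 (21.4%) lower at 800 nM. Of these, 21 were at least 2-fold lower, and 4 at least 2-fold higher, namely SGK1, MEX3B, RHOB and CXCL8. Of the 297 genes at least 2-fold lower than DMSO, 270 were also lower than 200 nM, and of the 79 at least 2-fold higher, 78 were also higher than 200 nM, where both contrasts use the same 800 nM arrays. The genes differed in where along the doses they moved. CCL20 averaged 8.43 in DMSO, 10.46 at 50 nM, 10.98 at 200 nM and 11.41 at 800 nM, so most of its rise was present at the lowest dose. SGK1 averaged 7.23 in DMSO, 7.29 at 50 nM, 7.96 at 200 nM and 9.47 at 800 nM, so most of its rise came between 200 and 800 nM (1.51, adjusted p = 1.5e-06). CDK12 averaged 6.76 in DMSO, 7.17 at 50 nM, 7.65 at 200 nM and 7.65 at 800 nM, with no call between the last 2 doses (-0.01, adjusted p = 0.96). BRCA1 averaged 6.89 in DMSO, 6.65 at 50 nM, 5.84 at 200 nM and 5.67 at 800 nM, also with no call between 200 and 800 nM (-0.17, adjusted p = 0.44). BARD1 and BLM fell further at 800 than at 200 nM, by 0.75 and 0.84, as did TUBGCP3, by 1.51, and ST6GALNAC5, by 1.81. RHOB and PLK2 rose at 800 nM against 200 nM, by 1.05 and 0.99, while RHOB did not pass at 200 nM against DMSO (0.23, adjusted p = 0.077).

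**Figure D4:**
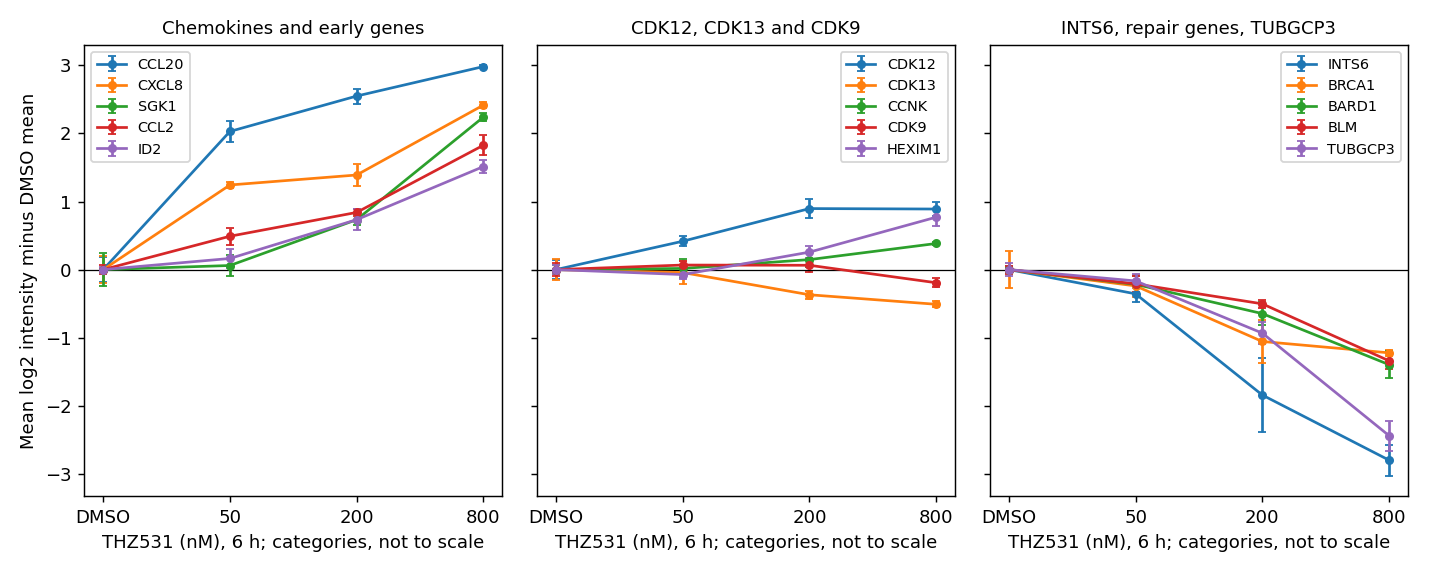
Mean log2 intensity less the DMSO mean (vertical axis) in U2-OS cells in DMSO and at 50, 200 and 800 nM THZ531 (horizontal axis, as categories), with bars of 1 SD over 3 arrays, for chemokine and early genes, for transcription kinase genes and for INTS6, repair genes and TUBGCP3. CCL20 stands 2.03 above DMSO at 50 nM already, SGK1 moves mostly between 200 and 800 nM, and CDK12 is level between 200 and 800 nM.

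Of the 30 largest changes, 19 were in genes active in both lines, and the change at 800 nM differed between U2-OS and SJSA-1 in 14 of them, against 66.5% of all genes active in both (limma, adjusted p under 0.05). The genes were chosen on their U2-OS values, so nothing is read from this count.

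Gene length was followed because CDK12 is linked to long genes. Spans on GRCh38.p14 were known for 6738 of the active genes. Genes at least 2-fold lower had a median span of 53.3 kb, against 28.2 kb for genes at least 2-fold higher and 29.3 kb for all active genes. The share at least 2-fold lower was 2.61% under 10 kb, 3.09% at 10 to 30 kb, 4.37% at 30 to 60 kb, 7.45% at 60 to 120 kb and 6.97% over 120 kb. The share at least 2-fold higher stood between 0.896% and 1.62% in these classes, with the highest value under 10 kb. Over the whole range the change was not ordered by span, with Spearman's rank correlation across genes at -0.013, and the median change was -0.077 under 10 kb and -0.087 over 120 kb. Genes are not independent replicates, and the classes also differed in level, with a median log2 intensity in DMSO of 8.49 under 10 kb and 7.84 over 120 kb. Among single genes the 15 largest falls spanned 4.62 to 200.1 kb (median 72.3 kb) and the 15 largest rises 1.15 to 148.9 kb (median 11.7 kb).

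**Figure D5:**
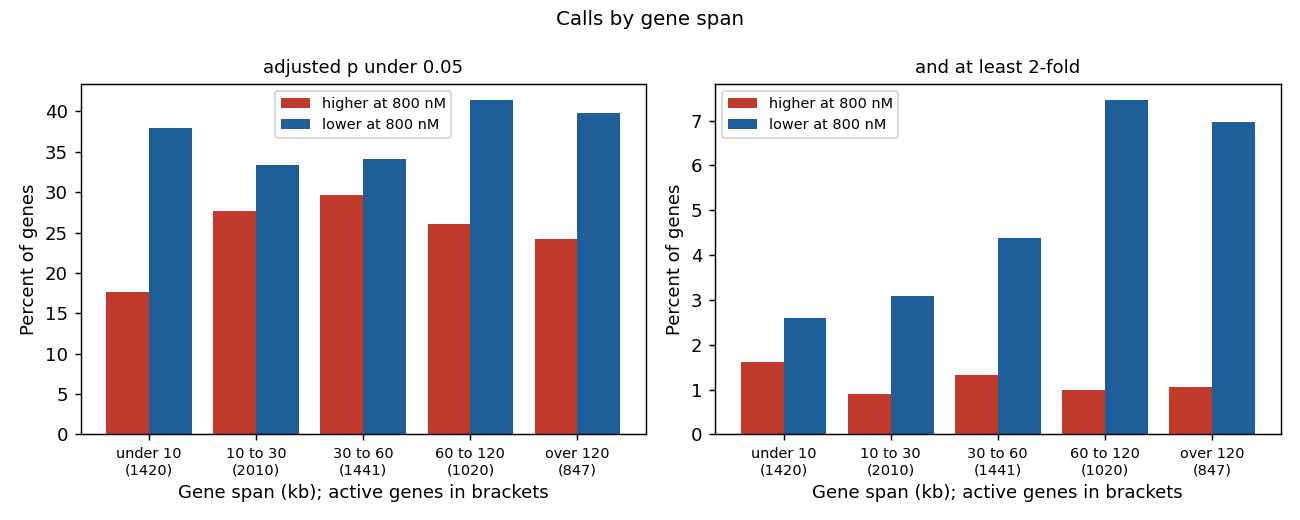
Percent of active genes (vertical axes) that were higher (red) or lower (blue) at 800 nM THZ531 than in DMSO, by gene span in kb (horizontal axes, number of genes in brackets), for all calls on the left and for calls of at least 2-fold on the right. The share at least 2-fold lower is 2.61% under 10 kb and 6.97% over 120 kb.

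Probe sets of 1 gene did not always move together. Of 3409 genes with several active probe sets, 2028 were called, and 81 of those had another active probe set called in the opposite direction. This touched 5 of the 79 genes at least 2-fold higher, which were SNX5, ANKRD10, OSMR, GCFC2 and ASXL1. TSC1, which encodes hamartin, a brake on growth signalling, was 1.41-fold higher by its representing probe set and had a second one that fell by 1.07.

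The extraction text in the labels names another tissue and kit than the treatment text, so the cells were checked by marker genes. Of 9 mesenchymal markers, 8 were active, with VIM, FN1 and CDH2 among them, and of 12 osteoblast markers 5 were, RUNX2, COL1A1, SPP1, SPARC and BMP4, while SP7, BGLAP, ALPL and IBSP were below the limit. Of 15 leukocyte and endothelial markers, 14 were on the array and 0 active, with summed intensities of 248.8 to 258.5 at 800 nM and 228.0 to 249.1 in DMSO. Of 15 neuron and glia markers, 14 were on the array and 2 active, NEFL and TUBB3, and NEFL was 1.86-fold higher at 800 nM. Epithelial markers were active in 3 of 8, KRT8, KRT18 and CLDN4, with 0 called by limma at 800 nM and 1, KRT18, at an unadjusted p under 0.05. RUNX2, the osteoblast factor, measured 6.49, 6.52 and 6.68 at 800 nM, against 7.52, 7.38 and 7.52 in DMSO, 1.88-fold lower. MDM2, which is amplified in SJSA-1, averaged 7.18 ± 0.031 in U2-OS cells and 10.66 ± 0.10 in SJSA-1 cells, each in DMSO.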

How the data were processed

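RNA of U2-OS and SJSA-1 cells was read on PrimeView arrays. The deposited table holds linear intensity values, 1 column for each of the 24 arrays, and the submitters' processing notes name RMA and MAS5 without versions. The logarithm of each deposited intensity fell on a whole hundredth of a log2 unit. Per the study's methods, the authors read the arrays with Affymetrix Command Console software and computed RMA values with quantile normalization at the probe level in Bioconductor. What MAS5 was used for is not given in the sources used here. The arrays' number limits the precision.

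Of 49372 probe sets, 44994 carried 1 gene symbol, 1832 several and 2546 none. Entrez identifiers gave current symbols for 44967 probe sets, and 27 kept the listed symbol. Log2 intensities of the 12 U2-OS arrays in 4 groups were fitted with limma 3.58.1 (lmFit, eBayes; R 4.3.3), without a pseudocount, and Benjamini-Hochberg adjustment ran across the 6741 active genes at a threshold of 0.05. Fold changes are differences of mean log2 intensity. The difference between lines was fitted over all 24 arrays and 5851 genes active in both. Exact permutation tests and summaries used Python 3.11.15, numpy 2.4.6, pandas 2.3.3 and scipy 1.17.1, and plots matplotlib 3.10.9. On simulated data for U2-OS 800 nM against DMSO, over 6741 genes, the fit recovered 48.5% of changes of 0.25, 95.5% of changes of 0.5 and 97% of changes of 1 (log2), with 6 false calls. The simulation changed 68, 66 and 66 genes by these sizes, with independent normal noise and no difference in array scaling. In the data 61.8% of active genes were called, so the simulated rates hold for the simulated setting only. No array pair was identical (0 pairs), and arrays within the 800 nM and the DMSO group of U2-OS correlated at 0.9919 or more.

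Named were the 15 largest rises and falls with no overlap between groups, the 4 active members of each list with the largest change, the candidate genes of the study, the kinases CDK7, CDK9, CDK12 and CDK13 with CCNK, MDM2 and MYC, the genes at the edge of the limit, the 5 largest rises among genes below the limit in DMSO, and named genes with an opposed probe set. A further gene of this rule is not reported here. Where 5 or fewer members of a list passed in 1 direction, they were named after their values were seen. The comparison, the members and the lists were chosen with earlier results of these data known. Alternatives were other limits, probe set rules, scalings, fits and left-out arrays. Motifs were sought in RefSeq promoters (GRCh38.p14), which 26 of the 30 largest genes had.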

Additional observations from a re-analysis of the deposited data

Results flagged for a closer look

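The change at 800 nM was compared between the lines for the 30 largest changes, of which 19 were active in both. The difference, SJSA-1 minus U2-OS, passed for 14 of these (limma, adjusted over 5851 genes), 10 of 11 rises and 4 of 8 falls, against 66.5% of all genes active in both lines. The U2-OS values chose these genes, so a smaller change in SJSA-1 is partly built into the choice.

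Genes with a rise in U2-OS and a change below 0 in SJSA-1 were RBM15 (1.47 in U2-OS and -1.53 in SJSA-1, difference -3.00, adjusted p = 3.43e-18), UTP15 (1.43 and -1.38, difference -2.81, adjusted p = 2.19e-16), CLK1 (1.46 and -1.33, difference -2.79, adjusted p = 1.97e-14) and PRDM2 (1.56 and -0.81, difference -2.37, adjusted p = 4.69e-14). For the neutrophil chemokine CXCL8 U2-OS changed by 2.42 and SJSA-1 by 0.12 (difference -2.30, adjusted p = 1.19e-13), and for GFM1 by 1.47 and 0.037 (difference -1.43, adjusted p = 9.97e-12). SGK1 changed by 2.24 in U2-OS and 0.81 in SJSA-1 (difference -1.43, adjusted p = 6.64e-10), ANKRD10 by 1.45 and 0.34 (difference -1.11, adjusted p = 1.3e-09), PRKAA1 by 1.46 and 0.87 (difference -0.59, adjusted p = 4.56e-06) and PHLDA2 by 1.54 and 1.203 (difference -0.34, adjusted p = 0.00244).

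Among the falls, TUBGCP3 changed by -2.44 in U2-OS and -0.50 in SJSA-1 (difference 1.94, adjusted p = 1.17e-10), INTS6 by -2.80 and -2.19 (difference 0.61, adjusted p = 0.0254) and DHX32 by -2.48 and -2.06 (difference 0.42, adjusted p = 0.0117). RNF146 was lower still in SJSA-1, with -2.12 for U2-OS and -3.19 for SJSA-1 (difference -1.07, adjusted p = 5.86e-10).

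Outside the active genes, 95 genes lay below the limit in DMSO, above it at 800 nM and at least 2-fold higher by limma.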

How the results depend on the processing

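Scaling, the limit of activity and the probe set rule moved the counts most. As deposited, 1707 genes were higher and 2461 lower, 79 and 297 of them at least 2-fold. Shifting the arrays by both controls gave 240 higher and 5465 lower (8 and 923 at least 2-fold) and a median of -0.52, and shifting by the poly-A controls 45 higher and 6242 lower (4 and 2387) and a median of -0.88. Without a filter 3770 genes were lower (250 at least 2-fold higher and 477 lower, median 0.01). With a DMSO intensity above 200, 1541 were lower (33 and 142 at least 2-fold, median -0.023), with fewer genes tested, and with the mean of a gene's probe sets 1542 (50 and 127, median -0.01). With a mean over all U2-OS arrays above 100 the median was -0.02, and the 2-fold counts were 117 and 207. The median was 0.01 with median-centred arrays, 0.014 with the hybridization controls and -0.066 after a repeated quantile normalization. Split into higher and lower, the calls were 2069 and 2068 with median-centred arrays and 1576 and 2639 after quantile normalization. The cause of these shifts was not tested.

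Against 200 nM, 873 genes were higher and 1443 lower. Other settings gave 555 and 883 (DMSO above 200), 133 and 3091 (both controls), 32 and 3375 (poly-A controls), 545 higher (hybridization controls), 909 lower (averaged probe sets), and 519 and 1012 with the threshold at 0.01. Leaving out 1 array at a time gave 1504 to 1618 higher and 2197 to 2387 lower, 76 to 79 and 284 to 316 at least 2-fold, a median of -0.053 to -0.033, and against 200 nM 642 to 978 higher and 1136 to 1550 lower. The methods' test gave 1755 and 2472 unadjusted, and 1575 and 2225 after Benjamini-Hochberg.

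Same-numbered arrays of 800 nM and DMSO deviated from their group means with correlations of -0.336, -0.058 and -0.399, and differently numbered ones with up to 0.405. Deviations within a group of 3 offset each other, so these values cannot decide whether the arrays were paired. With the number as a replicate block, 1644 genes were higher and 2389 lower, 79 and 297 at least 2-fold, and against 200 nM 797 and 1361.

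Values of 149 named genes were also followed under the alternatives. This left out the shifts by the controls, which turned small rises below 0, the methods' test and the threshold of 0.01. Of these 2835 values, 2775 kept direction and side of the threshold, 26 newly passed, 21 no longer passed and 13 changed direction. The 13 were ANKRD10 (-1.18), TSC1 (-1.07) and COL1A1 (-0.43) with the brightest probe set in DMSO, DNAJB6 (-0.029), RPL3 (0.0022) and COL1A1 (-0.014) with averaged probe sets, TCF7L2 (-0.044) and TUBB3 (-0.0033) after quantile normalization, CLDN4 (-0.016) with array weights, and, with 1 array left out, H2AC20 (range -0.078 to 0.377), CLDN4 (-0.042 to 0.123) and TCF7L2 (-0.013, -0.01 and up to 0.05). The calls lost were 9 for RPS9, 6 for FN1, 4 for CDK9 and 1 each for SRSF3 and ANKRD10. Dim probe sets limit the falls, since 203 genes at least 2-fold lower ended below the limit of activity.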

Other observations

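Of 11391 genes below the limit in DMSO, 341 lay above it at 800 nM. The level at 800 nM chose these genes, so their values are a description. The 5 largest rises were EID3, at 7.27 at 800 nM and 4.16 in DMSO (mean log2 intensity, n = 3 each), RGS16, a regulator of G-protein signalling, at 7.48 at 800 nM and 4.37 in DMSO, RNF152, a ubiquitin ligase gene, at 6.99 at 800 nM and 3.99 in DMSO, HECTD2 at 6.81 at 800 nM and 4.16 in DMSO, and TCIM at 7.53 at 800 nM and 4.91 in DMSO. IL6, an NF-kB-driven cytokine gene, was at 7.48 at 800 nM and 5.06 in DMSO, and was picked after its values were seen. Among chemokine genes below the limit, CXCL3 rose by 1.07 and CXCL10 by 0.27 (limma over all genes, adjusted p under 0.05). CXCL1 (-0.24), CXCL2 (-0.16), CXCL5 (-0.15), CXCL6 (0.17), CXCL12 (-0.073) and CCL5 (0.087) did not pass. Apart from CXCL1, all of these chemokine genes, CXCL3 and CXCL10 included, averaged below the medians over all probe sets in both groups. CXCL1 varied widely, with an SD of 0.61 at 800 nM and 0.54 in DMSO. At such low or variable signal a missing call does not show that a gene failed to respond.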
